A study of Mus musculus with 2 samples.

Results

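The JAK kinases and STAT transcription factors that relay cytokine signals in CD4 T cells were examined in mouse T cells that lack Taf7, which encodes part of TFIID, a complex that starts transcription at promoters. The group comprises 9 genes, Jak1, Jak2, Jak3, Tyk2, Stat3, Stat4, Stat5a, Stat5b and Stat6. For each gene the transcript cluster (the set of probes summarised into 1 value on the array) that carries only its symbol was used. Such a cluster was present for 8 of the 9 genes, each with exactly 1, out of 19938 genes with a single-symbol cluster on the array. The row that lists Jak3, the kinase that pairs with the common gamma chain, also lists a second gene, so Jak3 has no value of its own here.

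Total RNA of spleen CD4 T cells was hybridised to 1 array for each of 2 genotypes. Sorting had selected cells with abundant T cell receptor beta and CD4, mostly with little CD44, a surface protein of activated and memory cells. The knockout sample (Taf7 -/-) came from Taf7 f/- mice with the 8EIII-cre transgene, and the heterozygous sample (Taf7 +/-) from Taf7 f/- mice without it. Both samples therefore derive from mice with 1 null and 1 floxed allele, and no sample with both alleles intact was analysed here. The background was a C57/BL6 and 129 mix in both. The labels do not say which promoter drives Cre, the age of the mice or whether animals were pooled. With 1 array per genotype no difference has a replicate check and no test was run; precision is limited by how few arrays there are.

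Cytokine receptors have no kinase of their own and hold JAK kinases at their inner side. Binding of a cytokine brings the kinases together, they phosphorylate the receptor, and STAT proteins dock there, are phosphorylated in turn and enter the nucleus as dimers. In CD4 T cells STAT5 is known for survival and growth after IL-2 and IL-7, STAT4 for the T helper 1 response to IL-12, STAT6 for the T helper 2 response to IL-4, and STAT3 for responses to IL-6 and IL-21. Several STAT dimers, among them those of STAT3 and STAT5, bind DNA at a palindrome that is often written TTCNNNGAA, where N is any base. STAT6 dimers prefer a form with a longer spacer, which was not searched for.

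The palindrome was looked for in the promoter windows of RefSeq genes (GRCm38.p6, 250 bases before to 50 bases after a start site), in which it reads the same on both strands. Of all 32851 windows of 300 bases, 2726 (8.3%) held it. The 9 listed genes had 12 windows, and 0 of these held TTCNNNGAA. None held TATAAA on either strand, a form of the TATA box that TFIID binds through its TBP subunit, and which 13.6% of all windows held. No match says only that these letters are not in these windows. Among the inhibitor and target genes listed further on, 7 of 34 genes with a window held TTCNNNGAA, in 8 of 48 windows (16.7%). The stretches below show the matches of Cish and Socs3, which encode feedback inhibitors, and of Bcl6, a transcriptional repressor that directs follicular helper T cells. They were chosen because their windows held the motif and because these genes are textbook STAT targets. Another window of Bcl6 holds a further match, which is not shown. The stretch of Stat4, the listed gene with the largest difference, holds neither motif. Capitals mark TTCNNNGAA, and all are read 5′ to 3′ on the strand of the gene.
Cish, chr9:107296655-107296684, plus strand, from 4 bases before the start site: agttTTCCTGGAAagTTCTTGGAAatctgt
Socs3, chr11:117969497-117969526, minus strand: ccagccTTCTTAGAAgggaggggggggaaa
Bcl6, chr16:23981357-23981458, minus strand, before the second of its start sites along the gene: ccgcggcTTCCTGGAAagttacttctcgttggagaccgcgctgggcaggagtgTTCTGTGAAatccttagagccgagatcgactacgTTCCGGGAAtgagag
Stat4, chr1:51986898-51987105, plus strand, before the first of its start sites along the gene: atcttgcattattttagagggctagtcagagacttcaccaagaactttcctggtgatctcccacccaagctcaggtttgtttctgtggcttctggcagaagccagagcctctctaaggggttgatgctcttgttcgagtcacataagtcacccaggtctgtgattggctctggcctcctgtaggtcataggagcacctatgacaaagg

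The deposited values are log2 signals, and a difference is the knockout minus the heterozygous value on that scale. Genes whose mean over both arrays reached 7.71, the 50th percentile of all rows, were kept for counts, which left 10457 genes. Their median difference was -0.05, with a central 95% range of -0.62 to 0.39. Taf7 had a value of 8.34 in heterozygous and 7.79 in knockout cells, a difference of -0.55, and where its probes lie in the gene, inside or outside the deletion, is not known here, so that this value does not check the genotype. The labelled cell type was checked against its markers: 12 of 15 CD4 T cell markers had a single-symbol cluster, all 12 were above the filter, and their values lay between 11.56 and 13.54 in heterozygous and between 11.06 and 13.50 in knockout cells. Of the markers of other cells, 1 of 9 measured for B cells, 0 of 10 for myeloid cells, 1 of 7 for natural killer cells, 1 of 5 for erythroid cells and platelets and 4 of 5 for CD8 T cells were above the filter. The mean value over the CD8 T cell list was 8.97 in heterozygous and 8.70 in knockout cells. Its values lay between 7.63 and 10.50 in heterozygous and between 7.57 and 10.24 in knockout cells. The 4 CD8 T cell markers above the filter were all lower, with a median of -0.34, where 59.1% of all genes were lower. Of these 4, Crtam, at 8.12 and 7.57 (-0.55), passed the filter only through its heterozygous value. Cd8a, below the filter, was at 7.63 and 7.65 (0.02). Over all 5 markers the median was -0.26, beside 0.06 over all measured genes. The 1 natural killer cell marker above the filter was at 10.22 and 9.72.

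Most of the 8 measured JAK and STAT genes had close values in both genotypes, and Stat4 had the widest difference. Jak3 is not among them. All 8 measured genes were above the filter, 4 were lower and 4 higher in the knockout, and their median difference was -0.02, which turned to between 0.02 and 0.06 under the 3 other scalings. With quantile normalization 3 were lower, since Tyk2 came to 0.00. Among all genes above the filter 59.1% were lower in the deposited values. No listed gene differed by 1.5-fold (0.58 on the log2 scale) in either direction, where 3.17% of all genes were at least 1.5-fold lower and 0.449% at least 1.5-fold higher, so that a count of 0 among 8 genes is near this background. In bulk RNA, fewer cells of a type and less RNA per cell cannot be told apart, for these and all further values.

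**Figure D1:**
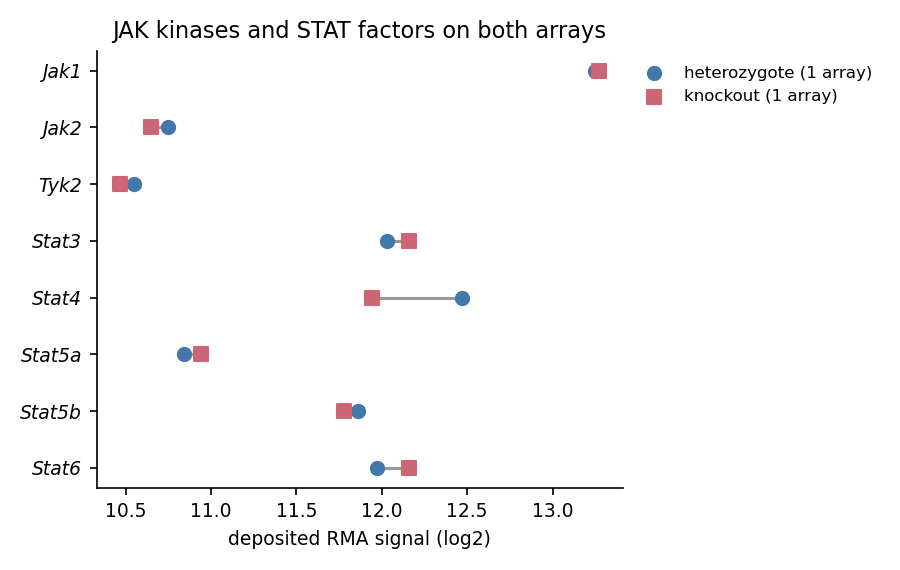
Deposited log2 signal of the 8 measured JAK and STAT genes (horizontal axis) in the heterozygous (circle) and knockout (square) array, 1 array each, so there are no error bars. Stat4 has the widest gap, from 12.47 to 11.94, while the symbols of the other genes lie within 0.18 of each other; signals of different genes are not on a common scale.

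The 3 kinases with a value of their own, which leave out Jak3, had close values on both arrays. Jak1, which serves nearly all the cytokine receptors of T cells, was at 13.25 in heterozygous and 13.27 in knockout cells, a difference of 0.03. Jak2, which pairs with the IL-12 and interferon gamma receptors, was at 10.75 and 10.65, a difference of -0.10. Tyk2, which pairs with the type I interferon, IL-10 and IL-12 receptors, was at 10.55 and 10.47, a difference of -0.07. None of the 3 kinases was farther than 1 robust SD from the median of the 500 genes nearest to it in mean signal, where that SD was 0.14 for Jak1, 0.17 for Jak2 and 0.16 for Tyk2. This SD describes the spread of genes on these arrays and is no replicate error.

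Stat4, the factor downstream of IL-12, was lower in the knockout. Its value was 12.47 in heterozygous and 11.94 in knockout cells, a difference of -0.53 or 1.45-fold, just short of the 1.5-fold size. Of all 10457 genes, 462 (4.42%) were at least as far below 0. Among the 500 genes nearest to Stat4 in mean signal, whose differences spread less (robust SD 0.14), 3 were at or below its difference. Under the 3 other scalings its difference lay between -0.49 and -0.47.

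**Figure D2:**
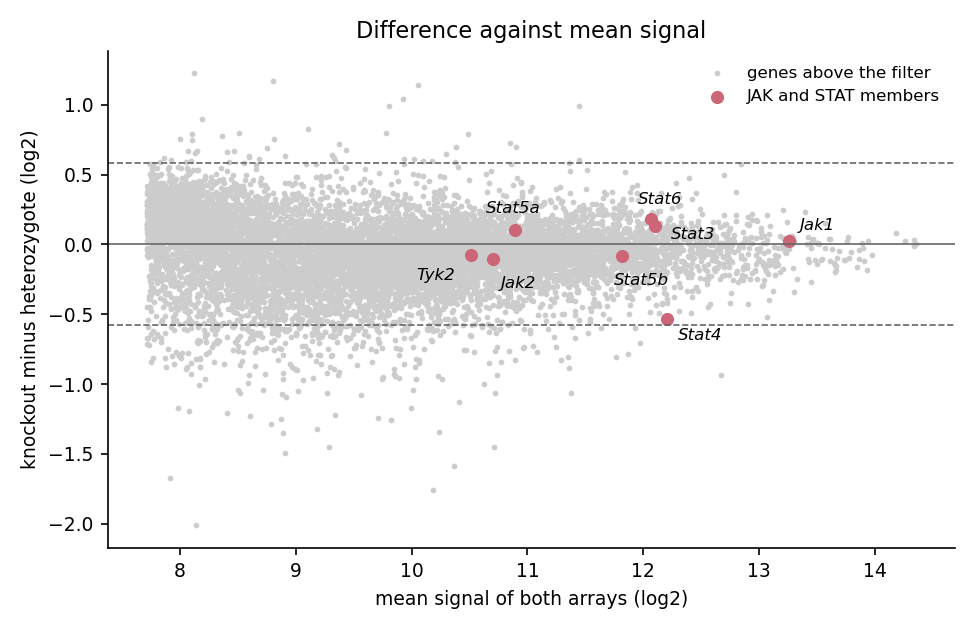
Mean log2 signal of both arrays (horizontal axis) against the knockout minus heterozygote difference (vertical axis) for the 10457 genes above the filter (grey) and the 8 JAK and STAT genes (red), with dashed lines at 1.5-fold. Stat4 lies next to the lower line at a mean of 12.21, where the differences of the other genes spread less than at low signal.

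The other STAT genes had differences of both signs. Stat6, the factor of the IL-4 response, had the highest difference of the measured JAK and STAT genes, which leave out Jak3. It was at 11.97 in heterozygous and 12.16 in knockout cells (0.18). Stat3 was at 12.03 and 12.16, a difference of 0.13. Both were farther than 1 robust SD (0.15) above the median of the genes nearest in mean signal, although 42 and 61 of those 500 genes were at least as high. Stat5a was at 10.84 and 10.94, a difference of 0.10, and Stat5b at 11.86 and 11.78, a difference of -0.08. These paralogs, which both serve IL-2 and IL-7, thus had opposite signs, each within 1 robust SD of the genes nearest in signal. They are close in sequence, and how far their probes tell them apart was not tested. Stat5b, Stat5a and Stat3 follow each other directly in the gene order of mouse chromosome 11, and their differences were -0.08, 0.10 and 0.13.

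Stat2, another factor of this family that acts with IRF9 in the type I interferon response, was at 10.69 and 10.67, a difference of -0.01. Irf9, its DNA-binding partner, was at 11.70 and 11.59, a difference of -0.11.

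Receptor chains upstream of the kinases were lower in the knockout in part. Of the 8 chains of common gamma chain receptors, 7 had a value and 6 were above the filter. Of these 6, 5 were lower and 1 higher, where 59.1% of all genes above the filter were lower in the deposited values. Only 3 were lower with the median difference taken off or with quantile normalization, where the share over all genes is not given. Il2ra, the alpha chain of the IL-2 receptor and a marker of regulatory T cells, was at 11.70 in heterozygous and 10.87 in knockout cells, a difference of -0.83 or 1.78-fold. It was the only 1 of the 16 receptor chains above the filter to differ by 1.5-fold. Of all genes above the filter 3.17% were at least 1.5-fold lower and 0.449% at least 1.5-fold higher. Nothing particular to the chains is drawn from this count. Il2rb, the beta chain, was at 11.14 and 10.84 (-0.31), and Il7r, which keeps naive T cells alive, at 13.25 and 13.03 (-0.22). Il15ra, Il21r and Il4ra had differences of -0.04, -0.03 and 0.05. The list median was -0.13, beside -0.05 over all genes above the filter. With Il9r, which was below the filter, included, the list median was -0.04, beside 0.06 over all measured genes.

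**Figure D3:**
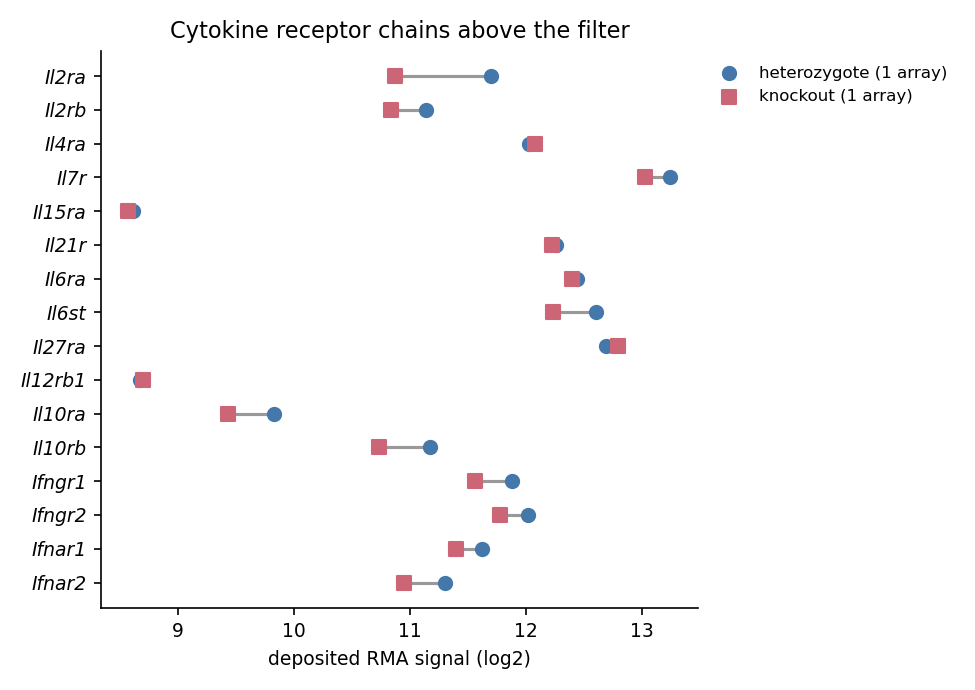
Deposited log2 signal (horizontal axis) of the 16 cytokine receptor chains above the filter in the heterozygous (circle) and knockout (square) array, 1 array each. The square lies to the left of the circle for Il2ra, the widest gap at -0.83, for both IL-10 receptor chains and for the 4 interferon receptor chains, among others.

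Both chains of the IL-10 receptor were lower, Il10ra from 9.83 to 9.43 (-0.41) and Il10rb from 11.17 to 10.73 (-0.43). Il6st, which encodes the shared signalling chain gp130, was at 12.61 and 12.24 (-0.38), whereas Il6ra, the chain that binds IL-6, was at -0.04. Il12rb1 and Il27ra had differences of 0.03 and 0.12. Il12rb2, the chain that recruits STAT4, was below the filter on both arrays, with 6.57 in heterozygous and 6.64 in knockout cells. In this list of 10 chains 6 were above the filter, 4 lower and 2 higher, near the 59.1% lower over all genes above the filter. With the median difference taken off or with quantile normalization 3 were lower, where again the share over all genes is not given. The median of the 6 was -0.21, beside -0.05 over all genes above the filter. Over all 10 chains the median was 0.02, beside 0.06 over all measured genes and 0.14 over genes below the filter.

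The 4 interferon receptor chains above the filter were all lower, in the deposited values and after each of the 3 other scalings, with a median of -0.28. Over all genes above the filter 59.1% were lower in the deposited values, with a median of -0.05, and nothing particular to these 4 chains is drawn from their count. Ifngr1 was at 11.88 and 11.56 (-0.32), Ifngr2 at 12.02 and 11.78 (-0.24), Ifnar1 at 11.62 and 11.40 (-0.22) and Ifnar2 at 11.30 and 10.95 (-0.34). None reached 1.5-fold. Ifnlr1, a lambda interferon receptor chain below the filter, had a difference of 0.07, beside a median of 0.14 over the genes below the filter. Ifnar2, Il10rb, Ifnar1 and Ifngr2 follow each other directly on mouse chromosome 16, so 4 of the lower chains are neighbours, while Ifngr1 lies elsewhere.

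The inhibitors of the pathway had values on both sides of 0. All 19 were above the filter, 14 lower and 5 higher with a median of -0.06. Beside this, 59.1% of all genes above the filter were lower in the deposited values, with a median of -0.05. After removal of a loess trend or quantile normalization 9 of the 19 were lower, where the share over all genes is not given. Socs1, a feedback inhibitor that blocks JAK kinases, was the highest with 9.76 and 10.12 (0.36), followed by Socs3 at 10.66 and 10.85 (0.19) and the phosphatase gene Ptpn6 at 0.08. Of the other cluster of Socs3 the difference was -0.04. By its cluster of highest mean, Socs2, an inhibitor best known for growth hormone signalling, was the lowest with 8.32 and 7.44 (-0.88 or 1.84-fold). That cluster passed the filter only through its heterozygous value. The 2 clusters of Socs2 disagreed, since the other one was at 7.50 and 7.80 (0.30), and with both averaged the difference was -0.29. Which of the 2 reports Socs2 was not tested, so the direction of Socs2 is not settled here. Ptpn2, a phosphatase that acts on JAK1, JAK3 and STAT proteins, was at 10.56 and 10.15 (-0.41), with -0.35 in its other cluster, and Socs4 was at 10.34 and 9.96 (-0.38). Cish, whose window is shown above, had a difference of -0.13 and was named for that window.

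**Figure D4:**
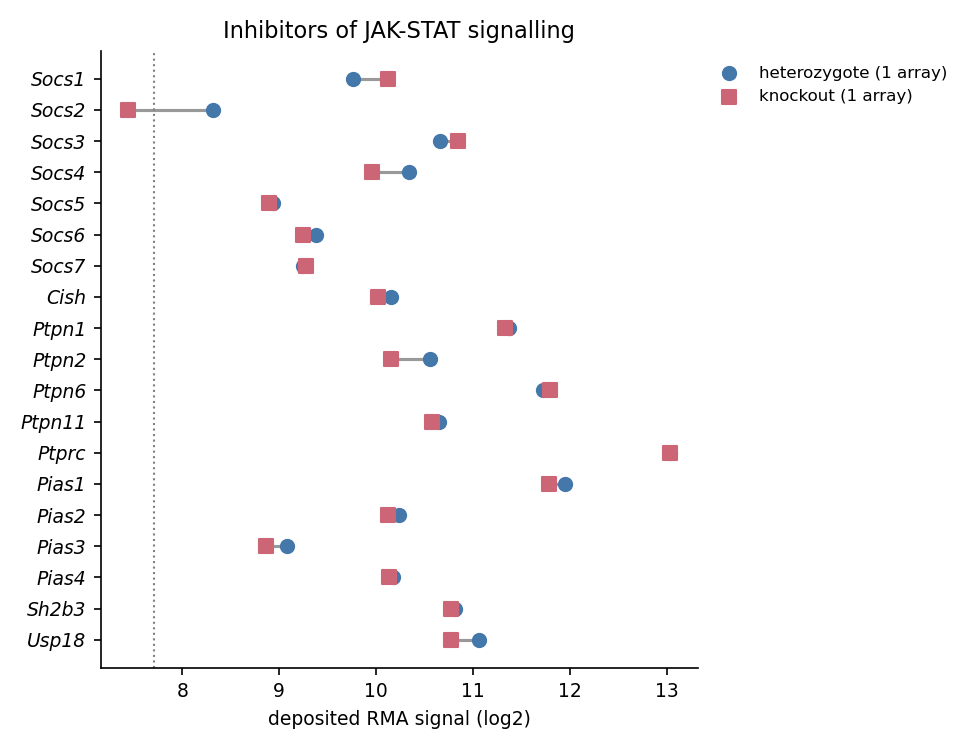
Deposited log2 signal (horizontal axis) of the 19 inhibitors of JAK-STAT signalling in the heterozygous (circle) and knockout (square) array, 1 array each; the dotted line is the filter value of 7.71. Socs1 is higher in the knockout by 0.36, and the knockout value of Socs2, 7.44, lies below the filter.

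Genes known as STAT targets in T cells had differences of both signs. Of 28 listed, 27 had a value and 24 were above the filter, 15 lower and 9 higher, which is near the 59.1% lower over all genes above the filter. Their median was -0.18 against -0.05 over those genes. Foxp3, whose expression needs STAT5 and which defines regulatory T cells, was at 11.25 and 10.19 (-1.06 or 2.09-fold). In the deposited values it was the only 1 of the 24 targets above the filter to differ by 1.5-fold. Of all genes above the filter 3.17% were at least 1.5-fold lower and 0.449% at least 1.5-fold higher. Maf was at -0.54 and Il18r1, an IL-12-induced chain of the IL-18 receptor, at -0.50. Tbx21, which encodes the T helper 1 factor T-bet, was higher with 7.45 and 8.02 (0.58), and its heterozygous value was below the filter. Tbx21 passed 1.5-fold only when the median difference was subtracted, at 0.62. It was at 0.43 with the loess trend removed and at 0.50 after quantile normalization. The 500 genes nearest to it in mean signal had a median difference of 0.17. The kinase gene Pim2 was at 0.29 and Junb at 0.25. Bcl6, named for its window, was at 9.73 and 9.41 (-0.32).

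**Figure D5:**
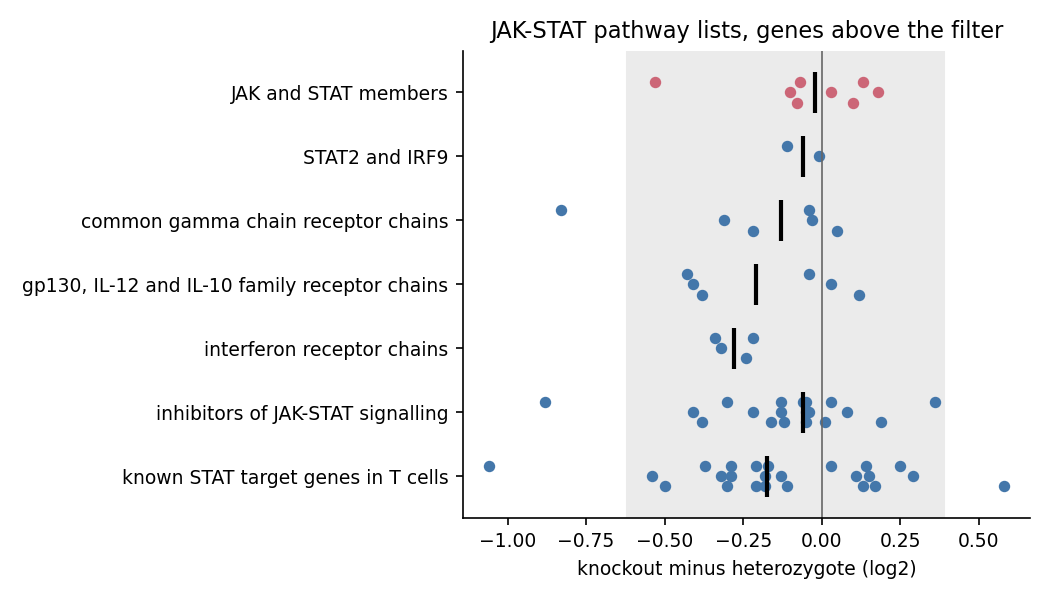
Knockout minus heterozygote difference (log2, horizontal axis) of each gene above the filter in 7 lists of the JAK-STAT pathway, 1 point per gene, with the list median as a black bar and the central 95% range of all genes above the filter (-0.62 to 0.39) in grey. Il2ra, Socs2 and Foxp3 lie left of the grey range, and Tbx21 lies right of it.

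Markers of regulatory and memory T cells were lower in the same comparison. Of 13 such markers, Il2ra, Il2rb and Foxp3 among them, 12 were above the filter, all 12 were lower and 8 by at least 1.5-fold, with a median of -0.90. Over all genes above the filter 59.1% were lower and 3.17% at least 1.5-fold lower. The mean value over the 13 was 10.19 in heterozygous and 9.41 in knockout cells. Nrp1, at 8.75 and 7.08 (-1.67), passed the filter only through its heterozygous value. Ctla4 was at -1.50, Cd44 at -1.35, Izumo1r at -1.06, Ikzf2 at -0.97 and Icos at -0.66. Sorting had selected cells mostly with little CD44, and the part of the sort in the Cd44 difference was not tested. Among the CD4 T cell markers, 7 were lower, 5 were higher and the median was -0.08, and Thy1 was the only one to differ by 1.5-fold, at -0.93. The part of these cells in the differences of Stat4, the receptor chains and the STAT targets was not tested.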

How the data were processed

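The deposited table holds log2 gene-level signals that the authors obtained by RMA (Affymetrix Expression Console 1.1, core gene set), per the labels and the series design text. RMA normalizes arrays to each other, so a shift common to most genes would not show. No genome build is stated. The array is called an exon array in the design text, but the probe annotation used belongs to a gene-level array, and this was not settled.

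Rows with 1 symbol were named, with the cluster of highest mean per gene. The reference gene table (GRCm38.p6), which held all 8 measured members, served for names and gene order only. Differences were taken without further normalization or test and counted at 1.5-fold above the filter. Named are the members, Taf7, up to 3 genes at each end of every pathway list, and listed genes or markers that differed by 1.5-fold. Cish, Bcl6, Il9r, Il12rb2, Ifnlr1, Crtam and Cd8a fall outside this rule and were added after their values were seen. The members and lists were chosen with earlier results of these data known. The alternatives were 3 other scalings (median subtracted, loess trend removed with span 0.3, quantiles), averaged clusters and 3 other filters. The steps were tested on simulated data with planted differences larger than that of any member, so recovery of smaller ones was not tested. The tools were Python 3.11.15 with matplotlib 3.10.9, numpy 2.4.6, statsmodels 0.14.6 and pandas 2.3.3.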

Additional observations from a re-analysis of the deposited data

Results flagged for a closer look

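The only row that lists Jak3 was used in no comparison because it also lists Insl3, a hormone gene of the testis. Its log2 signal was 11.55 in heterozygous and 11.86 in knockout cells, a difference of 0.30, and it is given because it carries signal outside the comparisons. Its value cannot be credited to either gene, and with 1 array per genotype it has no replicate check.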

How the results depend on the processing

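No paired analysis was possible because there is a single array for either genotype, and for that reason none could be left out. A value counted as moved when it shifted by more than the robust SD of the genes nearest in mean signal, for a list median divided by the square root of its size. All 32 values of the 8 members under the other scalings and averaged clusters stayed within that SD. Of 184 such values of single named genes the 1 that moved was Socs2. Averaging could not move genes with 1 cluster, which all members are. Subtracting the median took the same -0.05 from every gene, a shift smaller than each of these SDs. The values of these 2 kinds were bound to stay, so nothing is drawn from them. Tyk2 lay at -0.00 or 0.00 after removal of the loess trend and after quantile normalization. The median of the members was 0.06 after quantile normalization. The median of the inhibitors was -0.02 after the median difference was subtracted, 0.00 without the loess trend and 0.01 after quantile normalization, and that of the STAT targets -0.13, -0.11 and -0.10. The median of the common gamma chain receptors was -0.04 with no filter or the 25th percentile filter and -0.22 with the 75th, and that of the gp130, IL-12 and IL-10 family 0.02, -0.04 and -0.38, as more or fewer chains entered. Among all genes, 71 were at least 1.5-fold higher after the median difference was subtracted and 91 with no filter, against 47; with the 75th percentile filter, which admits fewer genes, 16 were 1.5-fold higher, 105 lower, 2 at least 2-fold higher and 12 lower.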
